A study of Mus musculus with 3 samples.

Results

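Metalloproteinases and their tissue inhibitors were followed in mouse muscle stem cells (MuSC), the cells that repair skeletal muscle, in 3 states. The genes are the 42 whose symbol in the array's annotation begins with Mmp or Timp and a digit or with Adamts, out of 18193 genes read here. They comprise 18 matrix metalloproteinases (Mmp), 15 Adamts proteases, 5 Adamts-like (Adamtsl) proteins and 4 Timp inhibitors, and were covered by 78 probe sets, each of which names 1 gene alone. Where a gene had several probe sets, the one with the highest mean signal was used, and 21 of the 42 genes had 1 probe set. Mmp15, Mmp21, Mmp25, Mmp27, Mmp28, Adamts2, Adamts13, Adamts14 and Adamts17 were not analysed here.

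The study asked how the cytokine oncostatin M (OSM) acts on MuSC that leave their resting state in culture. MuSC +OSM had been cultured for 3 days in 10% FBS with OSM at 100 ng/mL, MuSC −OSM had been cultured for 3 days in 10% FBS without it, and fresh MuSC had not been cultured. These arrays are also called those with OSM, without OSM and of fresh cells. All were wild-type C57BL/6 mouse cells, from animals 8 weeks old, FACS-sorted as positive for CD34 and α7 integrin. The paper's methods describe digestion of the hindlimb muscles with collagenase and dispase and a gate that removes cells positive for CD45, CD11b, CD31 or Sca1. The values analysed here hold 1 Affymetrix array column for each state, so there is no replicate error, no test was made, and every ratio compares single columns. A legend of the paper describes its OSM data as a mean over biological replicates. The labels name no replicates, and whether a column stands for a single hybridization or a mean cannot be told apart from the values used here. Each array gives 1 MAS5 signal per probe set, a linear measure of brightness that the authors scaled to a common mean.

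The Mmp and Adamts proteins are zinc proteases that cut the matrix around cells. Most Mmp enzymes are secreted as inactive proenzymes and some, the membrane types, stay at the cell surface. A group of Adamts enzymes (Adamts1, Adamts4, Adamts5, Adamts8, Adamts9, Adamts15 and Adamts20) cleaves the large proteoglycans aggrecan and versican, Adamtsl proteins resemble the Adamts enzymes outside the catalytic domain but have no protease activity, and Timp proteins bind and block the active site. In muscle these proteins shape the basement membrane and the matrix of the stem cell niche, and matrix turnover accompanies repair.

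The median signal was 32 with OSM, 36 without OSM and 53 in fresh cells, and a floor was set at 40, the rounded median over the 3 arrays. A gene counted as measured in a comparison where at least 1 of its 2 signals was above the floor. Lower signals were raised to the floor before a ratio was taken, and such folds are written as "at least". A gene was counted as higher or lower at a ratio of 2-fold or more. For the β-actin controls, the ratio of 3′ to 5′ signal, which is higher in degraded RNA, was 1.41 with OSM, 1.40 without OSM and 2.35 in fresh cells. For the Gapdh controls the same ratio was 0.905 with OSM, 1.14 without OSM and 1.36 in fresh cells. The part of RNA quality in the differences among the 3 arrays was not tested.

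Fresh MuSC carried the resting stem cell markers Pax7 (431 with OSM, 282 without OSM and 4006 in fresh cells) and Cd34 (15 with OSM, 34 without OSM and 2222 in fresh cells). Both cultured samples carried Myod1, a factor of activated myogenic cells, with signals of 4148 with OSM and 3820 without OSM, against 936 in fresh cells. Of the 9 MuSC markers read, 5 were at least 2-fold lower without OSM than in fresh cells and 3 higher. Over all genes measured in that comparison, 20.4% were lower and 15.0% higher. Between the cultured arrays, 6.07% of all genes measured were higher with than without OSM and 4.39% lower. These shares apply to each marker count in this paragraph. The fresh array also carried transcripts listed as markers of other cell types. Whether they came from such cells in the sorted sample was not tested. Of the 7 fibroblast markers read, 6 were at least 2-fold lower without OSM than in fresh cells and 0 were higher, and their summed signals were 726 with OSM, 213 without OSM and 19246 in fresh cells. Between the cultured arrays, 2 of the 5 fibroblast markers measured were at least 2-fold higher with than without OSM and 0 lower. The 5 tendon markers summed to 761 with OSM, 406 without OSM and 7359 in fresh cells, and the 3 Schwann cell markers to 211, 104 and 4287 in the same order. Between the cultured arrays, 2 tendon markers were measured, 1 at least 2-fold higher with than without OSM and 1 lower. The higher one, Prg4, had 577 with OSM, 16 without OSM and 448 in fresh cells, at least 14.4-fold higher with than without OSM. The lower one, Scx, had 104 with OSM, 327 without OSM and 48 in fresh cells, 3.14-fold lower with than without OSM. The 6 pericyte and smooth muscle markers summed to 14249 with OSM, 19617 without OSM and 9563 in fresh cells, most of it Acta2 at 13114, 19053 and 6543 in the same order. Of the 5 measured there, 3 were at least 2-fold lower without OSM than in fresh cells and 1 higher, and Rgs5 had 59 with OSM, 35 without OSM and 1687 in fresh cells. Pdgfrb, a receptor of pericytes and fibroblasts, had 738 with OSM, 139 without OSM and 661 in fresh cells, 5.31-fold higher with than without OSM. The endothelial marker Pecam1 (2 with OSM, 4 without OSM and 4 in fresh cells) and the leukocyte marker Ptprc (7 with OSM, 2 without OSM and 1 in fresh cells) were under the floor on all 3 arrays, whereas the myeloid marker Lyz2 had 13 with OSM, 13 without OSM and 1204 in fresh cells. The 7 leukocyte markers summed to 268 with OSM, 249 without OSM and 1412 in fresh cells, most of the last being Lyz2. Of the 4 measured in MuSC −OSM over fresh MuSC, 1 was at least 2-fold lower, Lyz2, and 1 higher, near the 20.4% and 15.0% over all genes. The higher one, Adgre1, had 41 with OSM, 83 without OSM and 40 in fresh cells. Csf1r had 149, 62 and 58 in the same order. The 6 endothelial markers summed to 116 with OSM, 118 without OSM and 1159 in fresh cells. Of the 3 measured in MuSC −OSM over fresh MuSC, 2 were lower and 0 higher. The part of such cells in the metalloproteinase signals of any array was not tested, and in bulk samples fewer cells of a type and less RNA per cell cannot be told apart.

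The genes differed in whether any signal was seen. Of the 42 genes, 21 were above the floor with OSM, 19 without OSM and 26 in fresh cells. A total of 16 were above it on all 3 arrays, 4 on 2 arrays, 10 on 1 array and 12 on none. The 12 without a signal above the floor were 10 of 18 Mmp genes and 2 of 15 Adamts genes, Adamts18 and Adamts19 with signals of 1 to 25, whereas all 5 Adamtsl and all 4 Timp genes were above it on at least 1 array.

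Most of the Mmp genes under the floor lie together in the genome. In the RefSeq gene table of GRCm38.p6, a run of 10 adjacent protein-coding Mmp genes on chromosome 9 holds 9 of the genes read here, and all 9 were under the floor on all 3 arrays, with signals of 1 to 38. They are Mmp13, Mmp8, Mmp1a and Mmp1b, which include the interstitial collagenases, the stromelysins Mmp3 and Mmp10, the macrophage elastase Mmp12, matrilysin (Mmp7) and the enamel protease Mmp20. Mmp1a and Mmp1b are paralogs, and cross-hybridization between their probe sets was not tested. The remaining Mmp gene under the floor was Mmp9, or gelatinase B, at 22 with OSM, 14 without OSM and 15 in fresh cells. Mmp8 and Mmp9 are enzymes of neutrophils, and the 5 neutrophil markers read summed to 65 with OSM, 77 without OSM and 62 in fresh cells. A signal under the floor does not show that a gene was off, only that it was not detectable on these arrays.

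Most genes of this run share a short motif before their start. AP-1, the Fos and Jun dimer, is a regulator long tied to collagenase and stromelysin promoters. The letters taken for its site, TGANTCA with any base allowed at N, form a pattern that reads the same on both strands. They were searched in the 250 bases before each start in RefSeq's promoter windows (GRCm38.p6), which hold 30 windows for 27 of the 42 genes. They occurred in 8 of the 27 genes, all of them in the chromosome 9 run, and in 6.75% of all 32851 windows of that length. Within the run, the window of Mmp8 lacked the letters, and Mmp12 and Mmp7, which have windows for 2 starts, held them at 1. In Mmp7 this was the first start of the gene, whereas in Mmp12 it was a start inside the gene, and the window before its first start lacked the letters. The 120 bases before the start of the 8 genes are shown because they carry the motif, which is in capitals, read 5′ to 3′.
Mmp13 (chr9:7272394-7272513, plus strand): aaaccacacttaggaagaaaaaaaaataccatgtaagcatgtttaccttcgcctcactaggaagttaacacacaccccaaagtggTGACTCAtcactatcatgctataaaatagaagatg
Mmp1a (chr9:7464021-7464140, plus strand): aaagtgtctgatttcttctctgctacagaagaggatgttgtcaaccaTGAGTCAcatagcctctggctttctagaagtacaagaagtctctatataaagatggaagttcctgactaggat
Mmp1b (chr9:7388027-7388146, minus strand): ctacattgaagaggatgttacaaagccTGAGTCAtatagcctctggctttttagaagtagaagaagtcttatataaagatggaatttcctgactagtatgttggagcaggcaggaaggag
Mmp3 (chr9:7445702-7445821, plus strand): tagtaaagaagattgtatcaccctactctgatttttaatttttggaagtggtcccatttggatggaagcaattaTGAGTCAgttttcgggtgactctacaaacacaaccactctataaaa
Mmp10 (chr9:7502222-7502341, plus strand): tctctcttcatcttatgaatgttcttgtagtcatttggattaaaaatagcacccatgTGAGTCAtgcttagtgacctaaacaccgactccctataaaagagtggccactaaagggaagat
Mmp12 (chr9:7347254-7347373, plus strand): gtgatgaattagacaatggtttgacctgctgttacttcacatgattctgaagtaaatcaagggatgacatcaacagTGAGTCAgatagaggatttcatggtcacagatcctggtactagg
Mmp7 (chr9:7691970-7692089, plus strand): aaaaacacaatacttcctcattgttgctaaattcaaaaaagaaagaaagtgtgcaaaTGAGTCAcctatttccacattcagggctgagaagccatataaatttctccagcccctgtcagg
Mmp20 (chr9:7628111-7628230, plus strand): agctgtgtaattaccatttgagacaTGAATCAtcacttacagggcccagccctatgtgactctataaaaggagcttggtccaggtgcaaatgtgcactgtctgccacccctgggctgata
The first base of the motif lay 35 bases before the start in Mmp13, 44 before the internal start in Mmp12, 46 in Mmp3, 63 in Mmp10 and Mmp7, 73 in Mmp1a, 93 in Mmp1b and 95 in Mmp20. The base at N was A in Mmp20, C in Mmp13 and G in the others. These 8 genes had signals of 1 to 38 on the 3 arrays, as did the run as a whole. A match of letters is not a measured site, and no binding was measured.

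Letters of the STAT element, TTCNNNGAA, were searched in the same windows because OSM receptors signal through STAT3. They were in 7.02% of all windows and in 1 of the 27 genes, Mmp23, where they lay 98 bases before 1 of the 2 starts that have a window. Timp1, the gene with the highest ratio in MuSC +OSM over fresh MuSC, had neither motif in its window. That start of Mmp23 and the start of Timp1 are shown for the contrast, with the STAT letters in capitals.
Mmp23 (chr4:155653291-155653410, minus strand): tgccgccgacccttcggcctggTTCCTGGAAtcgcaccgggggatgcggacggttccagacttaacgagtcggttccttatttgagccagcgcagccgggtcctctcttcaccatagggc
Timp1 (chrX:20870046-20870165, plus strand): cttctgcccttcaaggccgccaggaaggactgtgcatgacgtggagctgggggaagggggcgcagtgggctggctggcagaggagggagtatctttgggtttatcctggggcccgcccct
These letters say nothing of sites outside the window.

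With OSM, more of these genes were higher than lower. Of the 22 genes measured in MuSC +OSM over MuSC −OSM, 10 were at least 2-fold higher and 3 at least 2-fold lower, whereas over all 11271 genes measured 6.07% were higher and 4.39% lower. The 10 were 45.5% of the members measured and the 3 were 13.6%. The median log2 ratio was 0.94 over the members and −0.01 over all genes. The lower signal was under the floor in 2 of the 10 higher genes and in 1 of the 3 lower ones. A gene enters a comparison through a high signal on either array, so these counts and medians describe the genes measured and not all 42. The higher genes came from every class: Mmp14, Mmp19 and Mmp23 of 5 Mmp genes measured, Adamts4, Adamts5 and Adamts9 of 8 Adamts genes, Adamtsl1 and Adamtsl4 of 5 Adamtsl genes, and Timp1 and Timp3 of 4 Timp genes. The 3 lower genes were Adamts16, Adamtsl2 and Adamtsl5.

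More of the genes were lower than higher in MuSC −OSM against fresh MuSC. Of the 29 genes measured in MuSC −OSM over fresh MuSC, 15 (51.7%) were at least 2-fold lower and 5 (17.2%) higher, whereas over all 12755 genes measured 20.4% were lower and 15.0% higher. The median log2 ratio was −1.10 over the members and −0.14 over all genes. The lower signal was under the floor in 6 of the 15 lower genes and in 2 of the 5 higher ones. With OSM, 9 of 29 genes (31.0%) were lower than in fresh MuSC and 6 (20.7%) higher, whereas over all 12483 genes 17.2% were lower and 13.8% higher. The median log2 ratio in MuSC +OSM over fresh MuSC was −0.64 over the members and −0.14 over all genes. The lower signal was under the floor in 4 of the 9 lower genes and in 2 of the 6 higher ones. These comparisons share arrays, so each is given by its own values.

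**Figure D1:**
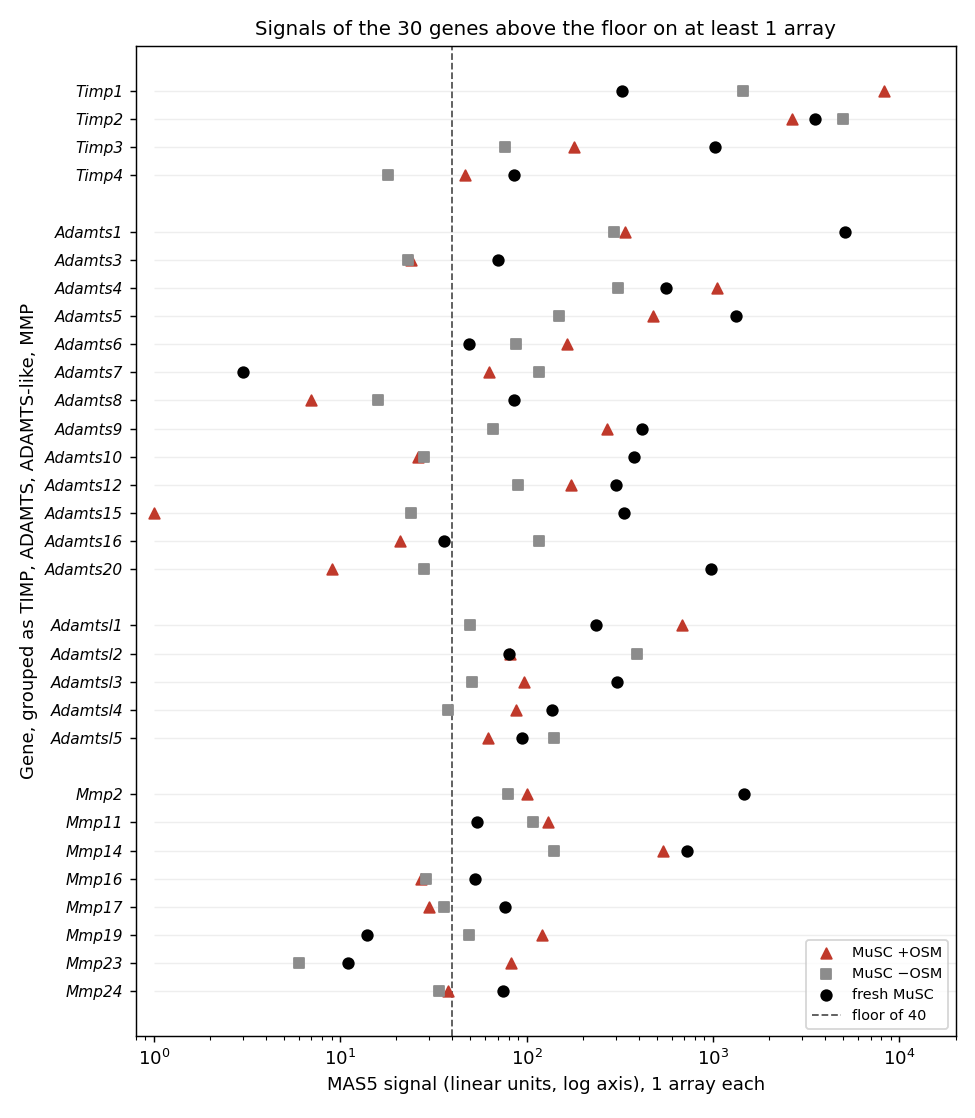
MAS5 signal (linear units, log axis) of the 30 genes above the floor on at least 1 array, grouped by class, with 1 point per array for MuSC +OSM, MuSC −OSM and fresh MuSC. Mmp2, Adamts1 and Adamts20 have their fresh MuSC point far to the right of both cultured ones, Timp1 has its MuSC +OSM point at 8232, and the dashed line is the floor of 40.

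The Timp inhibitors went different ways. Timp1, a secreted inhibitor of most Mmp enzymes whose gene lies on the X chromosome, had a signal of 8232 with OSM, 1445 without OSM and 323 in fresh cells. It was 5.70-fold higher with than without OSM, 4.47-fold higher without OSM than in fresh cells and 25.5-fold higher with OSM than in fresh cells, the highest ratio of the 42 genes in that last comparison. Timp1 was read by 1 probe set, so no other probe set checks it.

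Timp3, which stays bound to the matrix and inhibits Adamts enzymes as well, had 179 with OSM, 77 without OSM and 1020 in fresh cells. Its signal was 2.32-fold higher with than without OSM and 13.2-fold lower without OSM than in fresh cells, and MuSC +OSM was 5.70-fold lower than fresh MuSC. A further Timp3 probe set had 240 with OSM, 67 without OSM and 895 in fresh cells, and another had 75, 67 and 253 in the same order. All 3 measured Timp3 probe sets were thus highest in fresh MuSC, but they differed in how far the cultured arrays lay apart.

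Timp2, the inhibitor that also bridges Mmp14 to proMmp2, had 2651 with OSM, 4996 without OSM and 3533 in fresh cells, and was 1.88-fold lower with than without OSM. The 4 other Timp2 probe sets above the floor were all lower with than without OSM, by 1.02, 1.15, 1.42 and 1.53 on the log2 scale, each past 2-fold. Against fresh MuSC they did not all go one way, since their log2 ratios of MuSC +OSM over fresh MuSC were 0.81, −0.36, −0.69 and −0.71. Timp4 was near the floor, at 47 with OSM, 18 without OSM and 86 in fresh cells, and passed 2-fold as lower without OSM than in fresh cells.

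Among the membrane-type Mmp genes, Mmp14 (MT1-MMP), a collagenase of the cell surface and the activator of proMmp2, had 541 with OSM, 141 without OSM and 721 in fresh cells. It was 3.84-fold higher with than without OSM and 5.11-fold lower without OSM than in fresh cells, while MuSC +OSM and fresh MuSC lay within 1.33-fold. A second Mmp14 probe set gave the same directions with smaller log2 ratios, 0.64 for MuSC +OSM over MuSC −OSM and −0.88 for MuSC −OSM over fresh MuSC. Its substrate gelatinase A, Mmp2, differed from Mmp14 in MuSC +OSM against fresh MuSC, at 101 with OSM, 79 without OSM and 1472 in fresh cells. Mmp2 was 18.6-fold lower without OSM than in fresh cells and 14.6-fold lower with OSM than in fresh cells. A second Mmp2 probe set had 114 with OSM, 48 without OSM and 1472 in fresh cells. Between the cultured arrays it was 2.38-fold higher with OSM, as Mmp14 was past 2-fold, whereas the first was 1.28-fold higher. Whether Mmp2 differed from Mmp14 there thus depends on the probe set. Mmp2 is also a gene that fibroblasts express, and the fibroblast marker decorin (Dcn) had 373 with OSM, 32 without OSM and 12179 in fresh cells.

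The other membrane-type genes were low. Mmp16, Mmp17 and Mmp24 had signals over the floor on the fresh array alone, of 53, 77 and 75, and their ratios to the cultured arrays are bounds that stop short of 2-fold. A second Mmp24 probe set differed from the first, at 40 with OSM, 53 without OSM and 21 in fresh cells. Mmp23, a membrane-anchored member of unusual structure, had 82 with OSM, 6 without OSM and 11 in fresh cells, and passed 2-fold as higher with than without OSM, its lower signal being under the floor.

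Mmp11 and Mmp19 were higher with OSM than in fresh cells. Mmp11 (stromelysin-3), which furin activates inside the cell, had 131 with OSM, 108 without OSM and 54 in fresh cells. It lay at the threshold of 2.00-fold in MuSC −OSM over fresh MuSC and was counted as higher there, was 2.43-fold higher with OSM than in fresh cells, and differed by 1.21-fold between the cultured arrays. Mmp19 had 121 with OSM, 49 without OSM and 14 in fresh cells. It was 2.47-fold higher with than without OSM and at least 3.02-fold higher with OSM than in fresh cells. Without OSM its ratio to fresh cells was a bound of 0.29 on the log2 scale, within 2-fold.

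The Adamts proteoglycanases were mostly lower in culture. All 7 were above the floor in fresh MuSC, 6 of them were at least 2-fold lower without OSM than in fresh cells, and 5 were lower with OSM than in fresh cells. Adamts8, Adamts15 and Adamts20 enter these counts through the fresh array alone, so their ratios are bounds set by the floor. The counts also depend on the scaling. With the arrays centred on their medians, Adamts8 fell short of 2-fold in either culture against fresh cells, at a log2 ratio of −0.71. In MuSC +OSM over fresh MuSC, Adamts5 (−0.75) also fell short, and Adamts4 (1.64) newly passed 2-fold as higher. With OSM, 3 of the 4 measured were higher than without it. Adamts5, which clears versican, had 477 with OSM, 150 without OSM and 1329 in fresh cells. It was 3.18-fold higher with than without OSM and 8.86-fold lower without OSM than in fresh cells. The 2 other Adamts5 probe sets above the floor went the same way, with log2 ratios of 0.51 and 0.64 in MuSC +OSM over MuSC −OSM that fell short of 2-fold.

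Adamts9, which has a close relative in Adamts20, had 270 with OSM, 66 without OSM and 415 in fresh cells. It was 4.09-fold higher with than without OSM, 6.29-fold lower without OSM than in fresh cells, and within 1.54-fold between MuSC +OSM and fresh MuSC. The aggrecanase Adamts4 had 1049 with OSM, 308 without OSM and 557 in fresh cells, so that MuSC +OSM was the highest of the 3 arrays. It was 3.41-fold higher with than without OSM, and its second probe set gave a log2 ratio of 2.04 in the same comparison.

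Of the other proteoglycanases, only Adamts1 was measured in MuSC +OSM over MuSC −OSM, and it stayed within 2-fold. Adamts1, the neighbour of Adamts5 on chromosome 16, had 338 with OSM, 293 without OSM and 5138 in fresh cells. It was 15.2-fold lower in MuSC +OSM and 17.5-fold lower without OSM than in fresh cells, and the cultured arrays lay within 1.15-fold. Adamts20 had 9 with OSM, 28 without OSM and 980 in fresh cells, at least 24.5-fold lower in either culture than in fresh MuSC. Adamts15 had 1 with OSM, 24 without OSM and 332 in fresh cells, at least 8.30-fold lower in either culture. Its neighbour on chromosome 9, Adamts8, had 7 with OSM, 16 without OSM and 86 in fresh cells, and passed 2-fold as lower in either culture.

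**Figure D2:**
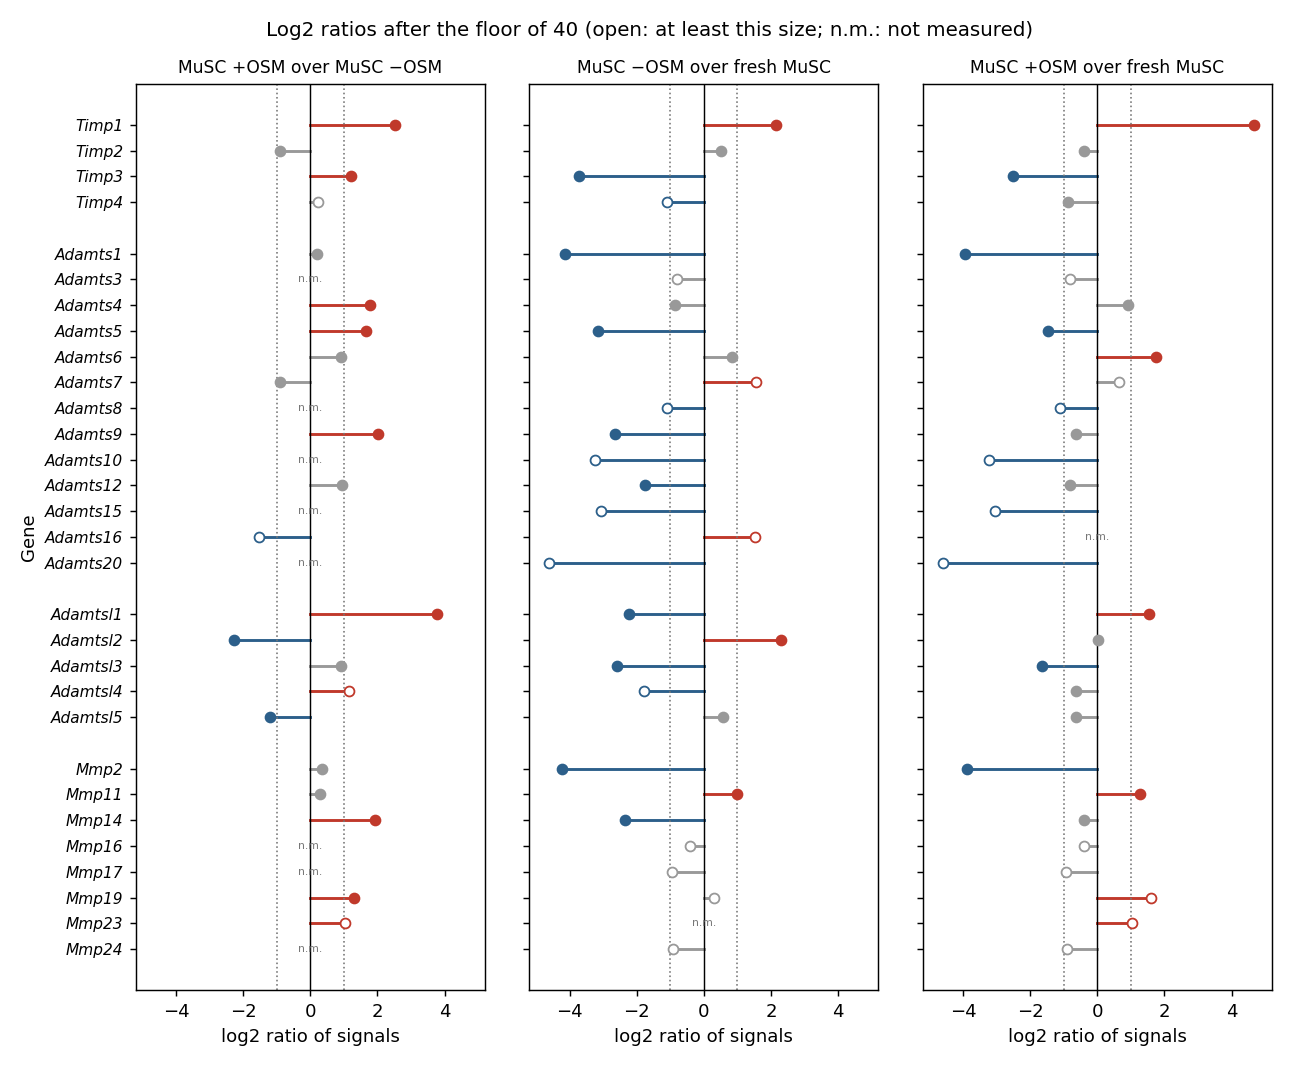
Log2 ratio of signals for the same 30 genes, with 1 panel per comparison, red for 2-fold or more higher, blue for 2-fold or more lower, grey within 2-fold, and dotted lines at 2-fold. Open points are lower bounds, n.m. marks genes with neither signal above the floor, and in MuSC +OSM over MuSC −OSM the extremes are Adamtsl1 at 3.77 and Adamtsl2 at −2.27.

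The other Adamts genes were mixed. Adamts10, whose mutation in humans causes a disorder of fibrillin microfibrils, had 26 with OSM, 28 without OSM and 377 in fresh cells, at least 9.42-fold lower in either culture than in fresh MuSC. A second Adamts10 probe set had 12 with OSM, 5 without OSM and 43 in fresh cells, where the bound is 1.07-fold. Adamts6, the close relative of Adamts10, ran the other way, at 165 with OSM, 88 without OSM and 49 in fresh cells. It was 3.37-fold higher with OSM than in fresh cells. A second Adamts6 probe set was not above the floor on any array, at 40 with OSM, 33 without OSM and 39 in fresh cells. On the probe sets that stand for them, Adamts6 and Adamts10 thus differed in which array was highest.

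Adamts7 and Adamts12, a related pair that cleaves cartilage oligomeric matrix protein, also went opposite ways. Adamts7 had 63 with OSM, 117 without OSM and 3 in fresh cells, at least 2.92-fold higher without OSM than in fresh cells. Adamts12 had 173 with OSM, 90 without OSM and 302 in fresh cells, 3.36-fold lower without OSM than in fresh cells. Between MuSC +OSM and MuSC −OSM neither reached 2-fold, with log2 ratios of −0.89 for Adamts7 and 0.94 for Adamts12.

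Adamts16 had 21 with OSM, 116 without OSM and 36 in fresh cells. Above the floor in MuSC −OSM alone, it was at least 2.90-fold lower with than without OSM and at least 2.90-fold higher without OSM than in fresh cells. Its second probe set was under the floor on all 3 arrays. Adamts3, a procollagen N-proteinase that also activates VEGF-C, was above the floor in fresh MuSC alone, at 70, so that its ratios to the cultured arrays are bounds, and these stop short of 2-fold.

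The Adamtsl genes held the largest ratios in both directions between MuSC +OSM and MuSC −OSM. Adamtsl1 (punctin), a secreted matrix protein, had 684 with OSM, 50 without OSM and 236 in fresh cells. It was 13.7-fold higher with than without OSM, 4.72-fold lower without OSM than in fresh cells and 2.90-fold higher with OSM than in fresh cells. Of its other probe sets, one had 200 with OSM, 24 without OSM and 35 in fresh cells, and another had 72, 7 and 62 in the same order. On all 3 Adamtsl1 probe sets, MuSC +OSM was the highest array. On the probe set with 200, the other signals were both under the floor and have no order.

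Adamtsl2 ran the other way from Adamtsl1. This fibrillin-binding protein, whose mutation in humans causes geleophysic dysplasia, had 81 with OSM, 391 without OSM and 80 in fresh cells. It was 4.83-fold lower with than without OSM, 4.89-fold higher without OSM than in fresh cells, and equal within 1.01-fold in MuSC +OSM and fresh MuSC. That last log2 ratio of 0.02 became 0.75 with centring on the medians and 0.52 with quantile normalization. Adamtsl2 was read by 1 probe set. Adamtsl5 also was lower with OSM, at 62 with OSM, 141 without OSM and 95 in fresh cells, a 2.27-fold difference between the cultured arrays. Its second probe set went the same way but fell short of 2-fold, at 46 with OSM, 65 without OSM and 17 in fresh cells.

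Adamtsl3 and Adamtsl4 were at least 2-fold lower without OSM than in fresh cells. Adamtsl3 had 97 with OSM, 51 without OSM and 305 in fresh cells, 5.98-fold lower in MuSC −OSM and 3.14-fold lower with OSM than in fresh cells. Adamtsl4, another protein of fibrillin microfibrils, had 88 with OSM, 38 without OSM and 137 in fresh cells. It was at least 2.20-fold higher with than without OSM and at least 3.42-fold lower without OSM than in fresh cells. With OSM it was within 2-fold of fresh cells, at a log2 ratio of −0.64 that became 0.09 when the arrays were centred on their medians.

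**Figure D3:**
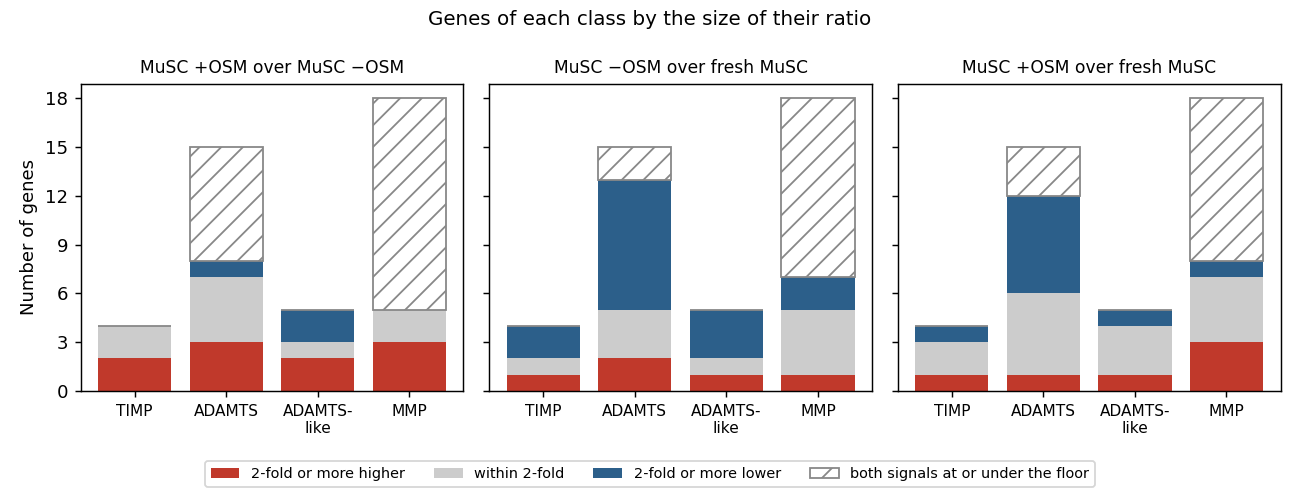
Number of genes (bars from 0) of each class that were 2-fold or more higher, within 2-fold, 2-fold or more lower, or without a signal above the floor, with 1 panel per comparison. Of the 13 Adamts genes measured in MuSC −OSM over fresh MuSC, 8 were lower, and 10 or more of the 18 Mmp genes lay without a signal above the floor in every panel.

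Other probe sets of the same genes were set beside these values. Among genes past 2-fold, 12 of 12 other measured probe sets had the same direction in MuSC +OSM over MuSC −OSM, and 4 of the 12 were themselves past 2-fold. In MuSC −OSM over fresh MuSC the direction was the same for 11 of 11, with 7 past 2-fold, and in MuSC +OSM over fresh MuSC for 10 of 10, with 6 past 2-fold. Probe sets of 1 gene share the RNA of 1 array, so they check the reading of the gene and not the condition.

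**Figure D4:**
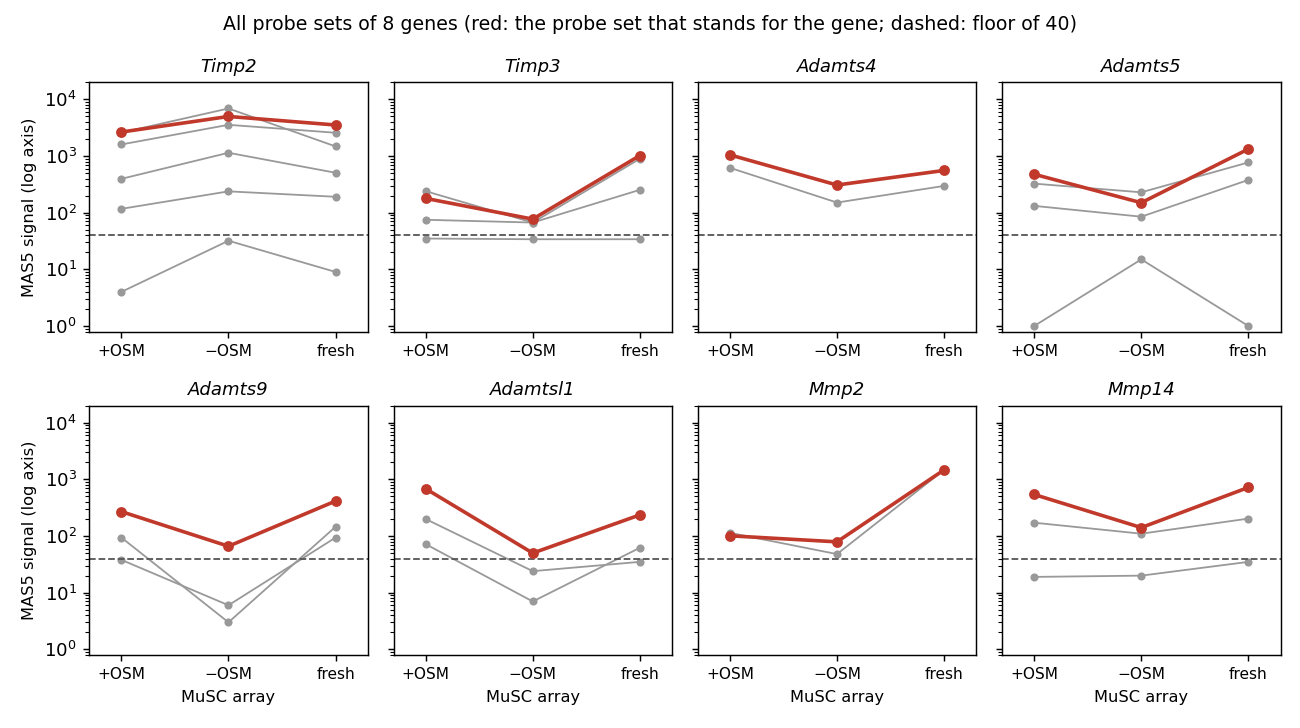
MAS5 signal (log axis) of every probe set of 8 genes on the 3 arrays, with signals under 1 drawn at 1, the probe set that stands for the gene in red, the others in grey and the floor of 40 dashed. For Timp2, every line above the floor is highest in MuSC −OSM, and for Mmp2 both lines reach 1472 in fresh MuSC.

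The proteins that act with these proteases were read from lists of their own. Of 14 activators and inhibitors measured in MuSC +OSM over MuSC −OSM, 5 were at least 2-fold higher and 0 lower, beside 6.07% and 4.39% over all genes. They included the procollagen C-proteinase Bmp1 (570 with OSM, 65 without OSM and 809 in fresh cells, 8.77-fold higher with than without OSM) and its enhancer Pcolce (1032 with OSM, 358 without OSM and 3210 in fresh cells, 2.88-fold higher). The membrane-anchored Mmp inhibitor Reck had 144 with OSM, 38 without OSM and 523 in fresh cells, at least 3.60-fold higher with than without OSM. Of 14 measured in MuSC −OSM over fresh MuSC, 8 were lower and 1 higher, beside 20.4% and 15.0% over all genes, among them the furin-like convertase Pcsk5, at least 22.9-fold lower, at 142 with OSM, 29 without OSM and 917 in fresh cells. Pcsk5 was also higher with than without OSM, and the fifth such gene was the related convertase Pcsk6, at 122 with OSM, 44 without OSM and 59 in fresh cells. The 1 higher gene was Bsg, an inducer of Mmp expression, at 830 with OSM, 838 without OSM and 325 in fresh cells, and both Pcsk6 and Bsg are named after their values were seen.

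Among the matrix proteins that these enzymes cut, 8 of the 15 measured passed 2-fold as higher with than without OSM, and 2 as lower, beside 6.07% and 4.39% over all genes. Of the 8, Dcn and Col1a1 also stand in the fibroblast list, so the counts of the lists share these genes. Dcn was at least 9.32-fold higher with than without OSM, the collagen chain Col3a1 was 3.42-fold higher, and fibronectin (Fn1) had a log2 ratio of 1.81. Versican (Vcan), the substrate of the proteoglycanases, had 497 with OSM, 81 without OSM and 83 in fresh cells, 6.14-fold higher with than without OSM. Without OSM, 14 of 18 were lower than in fresh cells and 0 higher, beside 20.4% and 15.0% over all genes. With OSM, 11 of 17 were lower and 2 higher, beside 17.2% and 13.8%. The 2 genes lower with than without OSM were the basement membrane collagen chains Col4a1 (208 with OSM, 493 without OSM and 3448 in fresh cells) and Col4a2 (88 with OSM, 182 without OSM and 1225 in fresh cells). The 2 higher with OSM than in fresh cells were Vcan and the small proteoglycan Bgn, and the collagen chains and Bgn are named after their values were seen.

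The ADAM proteases, membrane relatives of the Adamts enzymes that shed surface proteins, were counted too. Of 8 measured in MuSC +OSM over MuSC −OSM, 1 was higher and 0 lower, beside 6.07% and 4.39% over all genes, the one being Adam9, at 3092 with OSM, 1422 without OSM and 1062 in fresh cells. Of 9 measured in MuSC −OSM over fresh MuSC, 2 were higher and 2 lower, near the 15.0% and 20.4% over all genes. The lower ones were Adam23, at 40 with OSM, 41 without OSM and 164 in fresh cells, and Adam22, at 9, 13 and 136 in the same order. Adam12, which marks activated myoblasts, had 977 with OSM, 592 without OSM and 195 in fresh cells, 3.04-fold higher without OSM than in fresh cells, and Adam19 was 4.77-fold higher there. Whether the ADAM genes differ from the Mmp, Adamts, Adamtsl and Timp genes was not tested.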

How the data were processed

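The values used here hold 3 columns of Affymetrix MOE_430_2 arrays of sorted mouse MuSC, 1 for each condition. A legend of the paper describes its OSM data as a mean over biological replicates, and the labels do not say whether a column is such a mean. Per the paper's methods, 3′ IVT Express reagents amplified 20 ng of total RNA and MAS5 (no version stated) processed the CEL files. The authors deposited the MAS5 signal of each probe set as an intensity on a linear scale, whose 2% trimmed mean was 198.7 with OSM, 198.5 without OSM and 198.4 in fresh cells. Depth is not defined for arrays, and their number limits the precision.

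Conditions came from the sample labels. Of 45037 probe sets, 64 controls were left out, 34945 named 1 gene and 932 named several, 0 of which named a gene described here. All 42 genes matched the RefSeq gene table (GRCm38.p6) by identifier. Python 3.11.15, numpy 2.4.6 and pandas 2.3.3 gave the ratios after a floor of 40, with a 2-fold threshold. The ratio step was checked on copies of the MuSC −OSM array, with known fold changes put on genes well above the floor. That check does not reach changes in signals near or under the floor, or differences between real arrays. Plots used matplotlib 3.10.9. Every gene above the floor on at least 1 array was named with its signals or in a range, and genes under it were named and counted. Of the other protease and matrix lists, genes of the largest ratios were named with signals or ratios.

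Alternatives were another scaling of the arrays (median centring or quantile normalization), a floor of 20 or at the 75th percentile (183), the median of all probe sets of a gene, specific probe sets only, and a 3-fold threshold. The genes and the lists were chosen with earlier results of these data known. Promoter sequences are RefSeq's, of build GRCm38.p6. No build is stated for the array annotation.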

Additional observations from a re-analysis of the deposited data

How the results depend on the processing

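With 1 column per condition, leaving out a replicate was not possible. No paired analysis was possible because no condition has a second column. The alternatives gave 430 values for the 80 gene ratios, of which 0 changed sign past the threshold, 380 kept their side of 2-fold, 29 fell short of it and 21 newly passed it. Ratios not measured under a setting and the 3-fold threshold are left out of the 430. Part of the agreement was fixed in advance. A floor of 20 can only keep or enlarge a ratio, and 72 kept their side, 8 newly passed and 0 fell short. The higher floor can only keep or shrink one, and 33 kept their side and 7 fell short. The setting of specific probe sets kept the same probe set for most genes, as did the median for the 21 genes with 1 probe set.

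The number of genes measured also changes with the setting. In MuSC +OSM over MuSC −OSM, 10 of 22 members were higher. With the floor at the 75th percentile 5 of 9 were, with the median of all probe sets 6 of 21, and at 3-fold 6 of 22. Over all genes these settings gave 300 of 7014, 522 of 10017 and 255 of 11271. The 3 lower genes of 22 became 1 of 9 with the floor at the 75th percentile and 1 of 22 at 3-fold. Over all genes 221 of 7014 and 136 of 11271 were lower there. In MuSC −OSM over fresh MuSC, 5 of 29 members were higher. The count became 8 of 30 with arrays centred on the median, 2 of 16 with the floor at the 75th percentile and 2 of 29 at 3-fold. Over all genes these settings gave 3437 of 12310, 1298 of 7861 and 947 of 12755. The 15 lower genes of 29 became 8 of 16 with that floor, beside 1260 of 7861 over all genes. In MuSC +OSM over fresh MuSC, the 6 higher genes of 29 became 2 of 15 with that floor and 3 of 29 at 3-fold. Over all genes 1128 of 7826 and 759 of 12483 were higher there.

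Centring moved the median log2 ratio of all genes to 0.15 in MuSC +OSM over MuSC −OSM, 0.36 in MuSC −OSM over fresh MuSC and 0.56 in MuSC +OSM over fresh MuSC, and the share of all 2-fold calls that were higher to 72.2%, 70% and 80.2%, against 58%, 42.4% and 44.5% without it. With quantile normalization these shares were 54.4%, 53.3% and 54.8%. In MuSC +OSM over fresh MuSC, 7 of 29 members were higher and 6 lower after centring, against 6 and 9 of 29 without it. Over all genes, 4046 of 12055 were higher and 997 lower after centring, against 1721 and 2147 of 12483 without it. Among the gene ratios of the members, centring left 5 short of 2-fold and brought 7 newly past it. The median of the members kept its sign, between 0.21 and 1.38 in MuSC +OSM over MuSC −OSM, between −1.12 and −0.62 in MuSC −OSM over fresh MuSC, and between −0.74 and −0.01 in MuSC +OSM over fresh MuSC.

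With the median of all probe sets, Mmp14 (0.64), Timp3 (0.79), Adamts5 (0.88) and Mmp23 (0.76) fell short of 2-fold in MuSC +OSM over MuSC −OSM, as did Adamts16 (−0.61) and Adamtsl5 (−0.84), which are 2 of the 3 lower genes, and Timp2 passed it (−1.34). In MuSC −OSM over fresh MuSC, Mmp14 (−0.88), Adamtsl1 (−0.63), Adamts16 (0.61) and Timp4 (−0.62) fell short, and Adamtsl5 (1.25) and Timp2 (1.22) newly passed 2-fold. In MuSC +OSM over fresh MuSC, Adamts6 (0.89) and Mmp23 (0.76) fell short, and Adamts12 (−1.01) newly passed it. The cause was not tested.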
